A study of Mus musculus with 4 samples.

Results

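Immature granule-forming neutrophils of the neonatal mouse heart were described in 4 single-cell RNA libraries. The cells were selected on measured RNA. They needed at least 500 UMIs (unique molecular identifiers, one for each captured RNA molecule), at least 200 genes and at most 10% mitochondrial UMIs. The sum of Camp, Ltf and Ngp had to reach 20 UMIs per 10000 and that of S100a8 and S100a9 50 per 10000. The C1q genes had to stay below 10 per 10000, and at most 1 UMI of the T and B cell genes Cd3d, Cd3e, Cd3g, Cd79a and Cd79b was allowed. The rule kept 175 of 23961 cells, with 37 in Het_sham, 38 in KO_sham, 37 in Het_MI and 63 in KO_MI.

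The libraries came from C57BL/6 mice in which the gene for PD1, an inhibitory receptor of lymphocytes, was deleted on one chromosome (Het) or on both (KO). There was no wild-type group, so both genotypes carried a deletion. Surgery at postnatal day 2 was either sham or induced an infarct of the heart muscle (MI), and hearts without atria were taken 7 days later. Live cells that carried CD45, a surface protein of immune cells, were sorted after enzyme digestion. Each group was 1 library. Whether animals were pooled is not given in the sources used here, and no difference below has a replicate check or a p-value. The intervals given are exact 95% intervals and cover counting error only.

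Neutrophils mature in the marrow, and their granules are filled in waves. Primary (azurophilic) granules are filled with myeloperoxidase and serine proteases at the promyelocyte stage. Specific granules follow at the myelocyte and metamyelocyte stages with lactoferrin (Ltf), cathelicidin (Camp), neutrophilic granule protein (Ngp) and lipocalin (Lcn2), and gelatinase granules (Mmp9) come last. Transcription of specific granule genes, which needs the factor C/EBP-epsilon, stops before release, and receptors such as Cxcr2 and Csf3r mark mature blood neutrophils. Immature cells leave the marrow when demand is high.

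The granule genes of the rule lie close together. Camp (ENSMUSG00000038357, chromosome 9, 109847377 to 109849456, minus strand), Ngp (ENSMUSG00000032484, 110419808 to 110423012, plus strand) and Ltf (ENSMUSG00000032496, 111019292 to 111042766, plus strand) start within 1.17 Mb in GRCm38. Chil3 (ENSMUSG00000040809), a chitinase-like secreted protein that was not used by the rule, lies on chromosome 3 from 106147554 to 106167564 on the minus strand. The 250 bases before each start site, from RefSeq on GRCm38.p6, are shown because the RNAs of these genes varied together from cell to cell (below). The windows are chr9:109849457-109849706, chr9:110419558-110419807, chr9:111019042-111019291 and chr3:106167565-106167814 in the order printed. Capitals mark matches, on either strand, to TTGCNNAA (C/EBP-like), AGGAAG (PU.1-like) or TATAAA, motifs picked with earlier results known.

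Camp: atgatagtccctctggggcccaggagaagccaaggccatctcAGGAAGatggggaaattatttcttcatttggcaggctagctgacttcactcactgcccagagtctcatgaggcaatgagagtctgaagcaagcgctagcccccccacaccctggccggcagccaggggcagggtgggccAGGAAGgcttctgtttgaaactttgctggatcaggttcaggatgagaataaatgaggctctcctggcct
Ngp: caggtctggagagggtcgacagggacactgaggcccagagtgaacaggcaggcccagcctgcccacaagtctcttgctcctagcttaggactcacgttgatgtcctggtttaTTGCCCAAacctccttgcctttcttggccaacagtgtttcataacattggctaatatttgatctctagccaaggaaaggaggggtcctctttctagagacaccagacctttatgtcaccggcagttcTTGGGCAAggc
Ltf: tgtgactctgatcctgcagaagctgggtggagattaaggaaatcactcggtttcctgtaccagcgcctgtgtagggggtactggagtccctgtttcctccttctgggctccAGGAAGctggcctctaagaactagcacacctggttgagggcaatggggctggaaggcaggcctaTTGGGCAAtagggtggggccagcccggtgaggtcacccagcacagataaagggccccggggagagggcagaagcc
Chil3: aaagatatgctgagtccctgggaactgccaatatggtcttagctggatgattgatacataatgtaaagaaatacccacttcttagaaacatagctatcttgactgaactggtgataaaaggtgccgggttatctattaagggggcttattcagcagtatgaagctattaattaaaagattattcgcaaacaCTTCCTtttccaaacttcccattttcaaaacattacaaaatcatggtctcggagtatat

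TTGCNNAA was found at 2 places for Ngp, 1 for Ltf and none for Camp or Chil3, and 9.57% of all 32817 windows of this length hold it. AGGAAG was found at 2 places for Camp, 1 for Ltf, 1 for Chil3 and none for Ngp, and 29.5% of all windows hold it. No window held TATAAA, which 12.4% of all windows hold. A match is a description of the letters and not a binding site.

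The label was checked against markers that the rule did not use. Chil3, at 1926, 1563, 1841 and 1584 CPM (UMIs per 1000000 UMIs of the group; libraries in the order Het_sham, KO_sham, Het_MI, KO_MI here and below), was found in 26 of 37, 27 of 38, 25 of 37 and 41 of 63 members. Fcnb, encoding ficolin-B of immature myeloid cells, stood at 135, 110, 175 and 125 CPM and had a UMI in 14, 14, 10 and 18 members. In B cells, which should lack both, 0.0652% to 0.725% of cells had a Chil3 UMI and 0% to 0.181% an Fcnb UMI, at median depths of 4527 to 6551 UMIs. Both markers were thus present in members of every library. The defining genes of the earlier primary granules were at or near 0: Mpo, Elane and Ctsg had 0 UMIs in all 4 libraries and Prtn3 had 1, in KO_MI. The whole list of 12 primary granule genes summed to 11696 to 13040 CPM, since it also holds Lyz2, Serpinb1a, Clec12a and Ctsc, which were present in every library. With 251838 to 479154 summed UMIs per library, a count of 0 was taken to allow up to 3 UMIs in a library. This is a set floor and not one of the exact intervals.

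The deposited libraries held 6157 to 8379 barcodes and 52701847 to 72002420 UMIs. Members had a median of 5492, 6109, 6767 and 6135 UMIs, against 2373, 2270, 2472 and 2002 in the other neutrophils, which met the same S100, C1q and lymphoid conditions, had a granule sum below 20 per 10000 and at least 3 UMIs of Csf3r, Cxcr2 and Retnlg (208, 231, 162 and 191 cells). No barcode was shared between libraries among members, and 47 were among all kept cells. Members of KO_MI had 0 UMIs of the Y-linked gene Ddx3y and 157 of Xist, while the other libraries had 12, 16 and 33 Ddx3y UMIs and 16, 12 and 1 of Xist. The Het_MI and Het_sham libraries thus differ in these genes too. In each comparison with an MI library, genotype or surgery and the sex of the animals cannot be told apart. Het_sham and KO_sham held RNA of both genes, and whether sex differed between them was not tested.

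RNA of other cell types was present. The 10 monocyte markers summed to 1219, 1256, 1050 and 1613 CPM, with Vcan at 0 in Het_sham, Het_MI and KO_MI, and the 10 macrophage markers to 544, 1032, 498 and 666 CPM, none of them at 0 in any library. T cell markers reached 30.4 to 91.3 CPM, B cell markers 30.4 to 138, NK cell markers at most 6.26, and mast cell and basophil markers at most 3.94. Red cell genes stood at 11.4 to 15.9 CPM in 3 libraries and at 559 in KO_sham, where 2 cells held them. A group of 35 of the 175 members (8, 7, 5 and 15; 20% of all) carried at least 2 UMIs of Csf1r, the receptor of monocytes and macrophages, or at least 3 of MHC class II genes. These 35 had a median of 11680 UMIs against 5468 in the other 140. Their share was 21.6%, 18.4%, 13.5% and 23.8%, with intervals that overlap (KO_MI 14.0% to 36.2%, Het_MI 4.54% to 28.8%). This limit was set after seeing the data, after a stricter one (no Csf1r UMI at all, which left 24, 25, 30 and 43 members) had also been tried, and results below are given with and without these 35 cells. Scrublet's method marked only 1, 1, 0 and 1 members as doublets.

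The granule sum of Camp, Ltf and Ngp spread widely among members. Its quartiles were 186, 446 and 715 per 10000 and its highest value was 1281. The lowest members stood at 26.6, 29.0 and 31.6 per 10000, and the highest cells below the limit at 18.7, 18.2 and 17.5. Of the cells that met the S100, C1q and lymphoid conditions, 952 had less than 1 per 10000 and 87 lay from 1 to 20, of which 21 lay above 10; 2 members lay from 20 to 30. A further 13, 52, 26 and 65 droplets passed the granule and S100 limits but held too much C1q or lymphoid RNA (0.242%, 0.812%, 0.512% and 0.915% of kept cells), with median depths of 14585, 8948, 16884 and 18187 UMIs, and are not members.

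The specific granule genes set the members apart from other neutrophils. These comparisons describe the rule and its neighbours and carry no test. Camp stood at 24345, 22261, 23330 and 20914 CPM in members and at 17.2, 14.0, 24.1 and 39.7 in other neutrophils. Ngp stood at 24325, 21690, 23688 and 21373 against 29.8, 43.5, 39.0 and 111 CPM. Ltf stood at 6746, 7398, 6896 and 5938 CPM against 2, 0, 7 and 2 UMIs in all other neutrophils of a library. Each of the 3 granule genes of the rule was thus high in every library.

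Other granule genes, outside the rule, had the same pattern. Lcn2, an iron-scavenging protein of specific granules, was at 8359, 9217, 8527 and 7726 CPM against 277, 279, 282 and 221, a ratio of 30.2 to 34.9 over libraries. Cd177, a surface receptor stored in specific granules, was 21.2 to 46.6-fold higher, and Serpinb1a, an inhibitor of neutrophil serine proteases, 25.8 to 100-fold. Mmp8, neutrophil collagenase, was 3.10 to 5.27-fold higher, Anxa1 3.74 to 4.86-fold and Itgb2l 7.65 to 18.7-fold. Of the 18 specific granule genes with at least 100 UMIs over both groups, 17 were at least 1.5-fold higher in all 4 libraries, where 3.74% of all 3532 genes were. The list holds the 3 granule genes of the rule, and genes that pass a minimum through the group where they are high had to differ. The exception was Lyz2, the lysozyme gene, at 1.37 to 2.84-fold.

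Genes of mature neutrophils were lower in members. Of 25 receptors and inflammatory genes, 22 were at least 1.5-fold lower in all 4 libraries, where 19.1% of all genes were; the median of all genes was −0.41, −0.51, −0.63 and −0.44 on the log2 scale. Csf3r, the receptor of granulocyte colony-stimulating factor, stood at 111, 102, 129 and 98.1 CPM against 916, 955, 1021 and 757, 7.71 to 9.33-fold lower. Cxcr2, the chemokine receptor for release from the marrow, was 2.86 to 3.84-fold lower, and Cxcr4, which retains cells in the marrow, 3.98 to 5.95-fold. Il1b was 3.63 to 7.78-fold lower, Srgn 3.21 to 4.05-fold, and Hcar2 9.85 to 23-fold. Csf3r and Cxcr2 UMIs were part of the condition for other neutrophils and so are not independent of it.

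Of the 11 measured genes of the last granules, 2 were at least 1.5-fold higher in all 4 libraries, 2 lower and 7 neither. Mmp25, a membrane-bound protease, was 1.61 to 3.8-fold higher, and Slc11a1, a metal transporter, 1.76 to 3.94-fold lower. Mmp9, gelatinase B, was at 1076, 1130, 1145 and 906 CPM against 987, 956, 1179 and 897, a ratio of 0.971 to 1.18. Hp (haptoglobin) had ratios of 1.16 to 1.39. Retnlg, a resistin-like secreted protein, was at 9760, 12308, 10733 and 9335 CPM against 5904, 5918, 7301 and 6807, and its UMIs were part of the condition for other neutrophils. Among transcription factors, Cebpe, which drives specific granule genes, was 3.21 to 5.35-fold higher in members, Cebpb 2.39 to 3.0-fold lower, and Spi1, encoding PU.1, at 0.801 to 0.889 of the level in other neutrophils. Ly6g, the antigen used to stain mouse neutrophils, was 6.12 to 16-fold higher. Cybb and Ncf1, subunits of the oxidase that makes superoxide, were 2.0 to 3.59 and 1.55 to 1.79-fold higher. Selplg, the ligand of P-selectin, was 4.29 to 7.25-fold lower.

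Further lists, given as genes at least 1.5-fold higher and lower in all 4 libraries, read against the same background of 3.74% and 19.1%. Of 14 receptors for chemokines and other attractants 1 was higher and 8 lower. Of 20 myeloid transcription factors 1, Cebpe, was higher and 8 lower. Adhesion and migration genes had 3 higher and 5 lower of 14, and S100 and annexin genes 4 and 1 of 10. The 3 include Cd177 and Mmp8, already counted with the specific granule genes. The 4 include S100a8 and S100a9, which the rule used. Stress and dissociation genes, among them Fosb, had 0 higher and 7 lower of 12, and glycolysis genes 2 and 1 of 13.

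**Figure D1:**
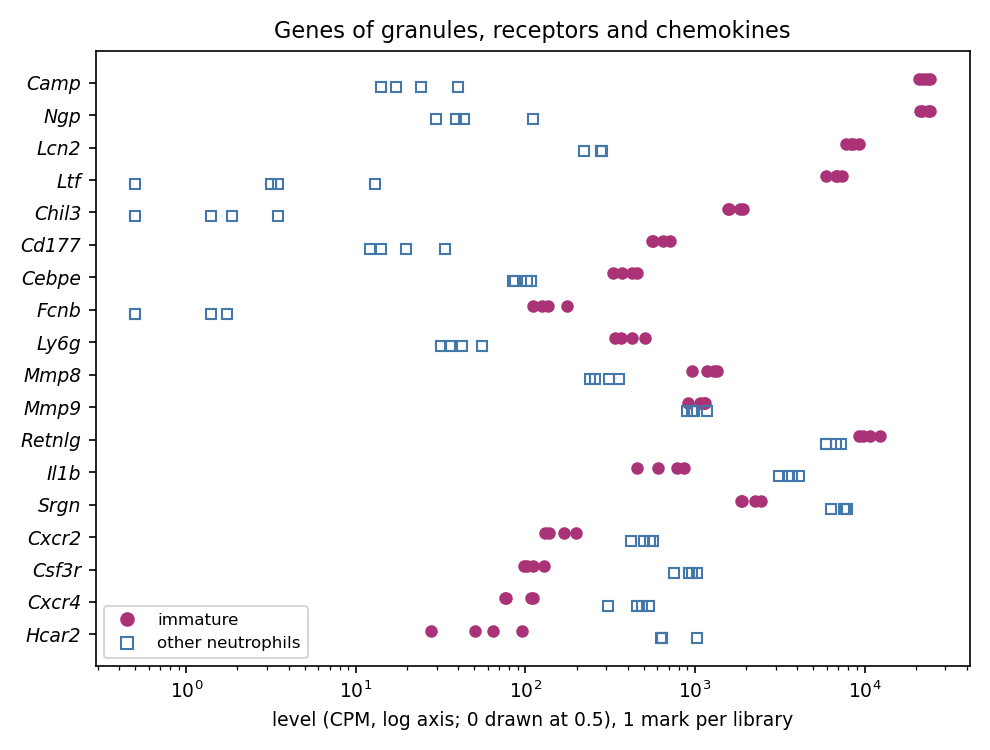
Level of 18 genes in immature neutrophils (filled circles) and other neutrophils (open squares), 1 mark per library, on a log axis in CPM. Camp marks lie between 20914 and 24345 CPM in members and below 40 in other neutrophils, Mmp9 marks overlap, and Csf3r and Cxcr2 marks lie lower in members.

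The members ran from cells rich in Chil3 to cells rich in Retnlg. Across the 175 cells, Camp and Ngp followed each other with a Spearman rho of 0.89, and Camp and Chil3 with 0.78. Chil3 and Retnlg ran against each other at −0.79, and Camp and Retnlg at −0.71. These are descriptions across cells of 4 libraries that share depth and composition, and the genes of the rule were used to choose the cells. Within single libraries the rho of Chil3 and Retnlg was −0.81, −0.77, −0.75 and −0.76.

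A split by whether Chil3 exceeded Retnlg, chosen after the values were seen, put 14, 8, 11 and 21 members on the Chil3 side. Their share was 37.8%, 21.1%, 29.7% and 33.3%, with intervals such as 9.55% to 37.3% in KO_sham that overlap all others. The genes that follow were not used in the split. Fcnb was at 272, 226, 347 and 246 CPM on the Chil3 side and at 28.2, 61.5, 57.6 and 29.9 on the other. Orm1, an acute-phase glycoprotein, was at 218, 160, 244 and 175 CPM against 7.06, 16.8, 70.4 and 37.4. Hmgn2, a nucleosome-binding protein, was at 908, 292, 637 and 775 against 275, 229, 160 and 153. These were higher on the Chil3 side in each library, and so was Stmn1, a microtubule regulator of dividing cells, at 200, 39.9, 244 and 128 CPM against 42.3, 11.2, 12.8 and 29.9.

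The Retnlg side carried later genes. Mmp8 was at 1821, 1639, 1799 and 1354 CPM there and at 345, 678, 553 and 472 on the Chil3 side. Mmp9 was at 1630, 1303, 1543 and 1312 CPM against 363, 718, 562 and 392. S100a6, a calcium-binding protein, was at 3056, 2775, 3278 and 3249 against 191, 465, 159 and 1219, and Cxcr2 at 169, 213, 301 and 191 against 81.7, 66.5, 46.8 and 70.8. In each of these the Retnlg side was higher in all 4 libraries. Of 241 genes from the lists, 52 were higher and 44 lower on the Chil3 side in all 4 libraries. The share over all genes is not given here, so these counts are a description and not read as a result. Mmp8, a specific granule gene by list, thus ran with Retnlg, and its rho with Camp was −0.38.

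Dividing members sat mostly on the Chil3 side. With at least 3 UMIs of 20 mitosis genes taken as dividing, 12 of 175 members were dividing, 10 among the 54 on the Chil3 side and 2 among the 121 others. Cells on the Chil3 side were deeper (median 6916, 9557, 10730 and 9606 UMIs against 5172, 5890, 5776 and 4860), and the part of depth in this count was not tested. By library there were 3 of 37 (8.11%, 1.70% to 21.9%), 1 of 38 (2.63%, 0.0666% to 13.8%), 1 of 37 (2.70%, 0.0684% to 14.2%) and 7 of 63 (11.1%, 4.59% to 21.6%). With every cell thinned to 1500 UMIs and at least 2 mitosis UMIs asked, 2 of 33, 0 of 38, 1 of 37 and 5 of 62 members passed. The 0 in KO_sham allows a share of up to 9.25%. The intervals overlap, so no difference in division was detectable between libraries.

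**Figure D2:**
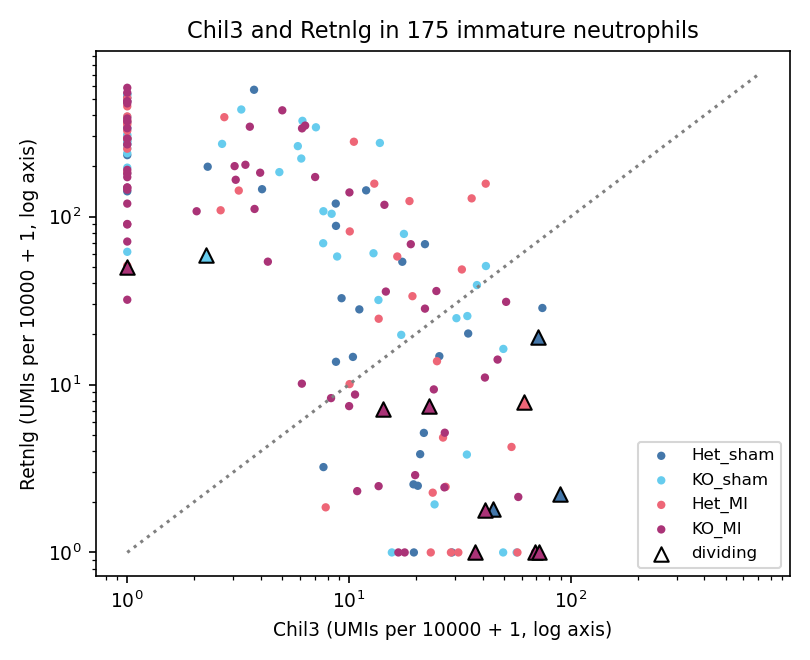
Chil3 against Retnlg in each of the 175 members, in UMIs per 10000 plus 1 on log axes, coloured by library, with dividing members as triangles and equal levels as the dotted line. Cells of every library lie along the whole range, and 10 of the 12 triangles lie on the Chil3 side of the line.

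The first comparison asked how common the cells were after MI and without PD1. Members were 0.688% of kept CD45 cells in Het_sham (0.485% to 0.947%), 0.593% in KO_sham (0.420% to 0.813%), 0.729% in Het_MI (0.514% to 1.0%) and 0.887% in KO_MI (0.682% to 1.13%). All ratios between libraries had intervals that include 1, as for KO_MI over KO_sham at 1.5 (0.984 to 2.30). Among neutrophils the shares were 15.1%, 14.1%, 18.6% and 24.8%. There KO_MI over KO_sham was 1.76 (1.16 to 2.70), KO_MI over Het_MI 1.33 (0.875 to 2.06), Het_MI over Het_sham 1.23 (0.759 to 2.0) and KO_sham over Het_sham 0.935 (0.579 to 1.51).

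Other neutrophils were at the same time 3.87%, 3.61%, 3.19% and 2.69% of kept cells, with KO_MI over KO_sham at 0.746 (0.612 to 0.907). The neutrophil share in KO_MI thus rests on a lower share of other neutrophils as well as on its members. Without the 35 members and the other neutrophils that carry Csf1r or class II RNA, the shares among neutrophils were 14.0%, 13.2%, 18.9% and 22.9%. The order of the libraries was KO_MI, Het_MI, Het_sham and KO_sham in both counts, and neighbours in it had overlapping intervals. Without members and others with at least 3 UMIs of another lineage the shares were 15.3%, 13.6%, 20.2% and 21.1%, so that the 2 MI libraries were close.

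**Figure D3:**
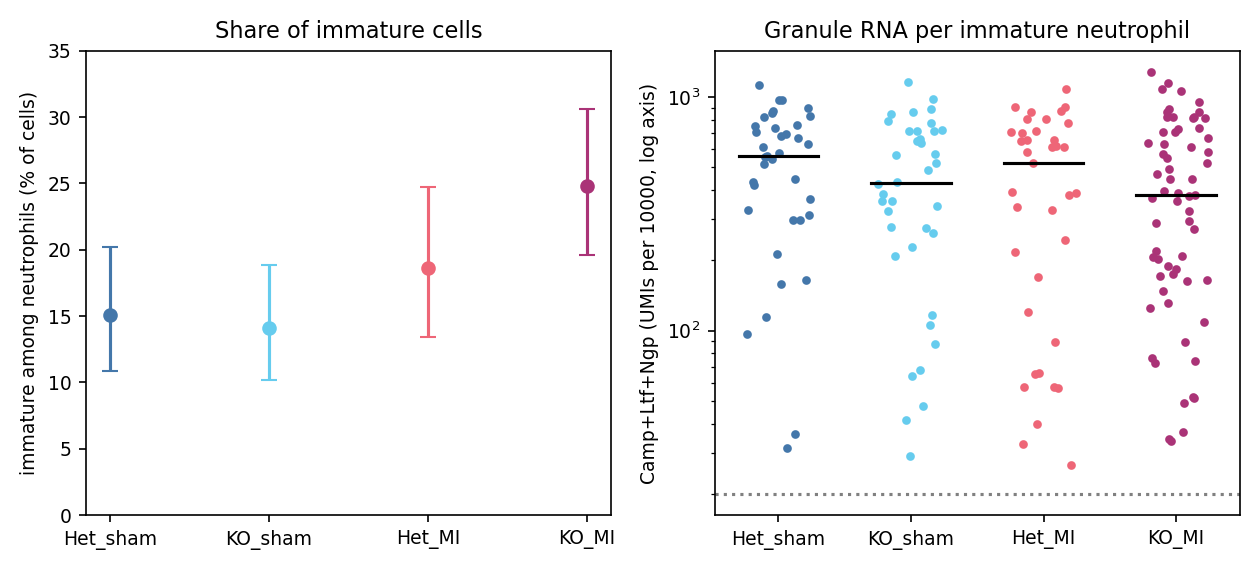
Left, share of immature cells among neutrophils in each library with exact 95% intervals for counting error; right, Camp plus Ltf plus Ngp per member on a log axis, with the median as a bar and the limit of 20 per 10000 dotted. The share is 24.8% in KO_MI and 14.1% in KO_sham, and the granule sums of the 4 libraries overlap over their whole range.

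The levels of members were then compared between libraries. A gene counted as past the size rule where it had at least 30 UMIs in both libraries together and the whole interval of its ratio lay beyond 1.5-fold. For KO_MI over Het_MI 98 of 2263 genes were past it upward (4.33%) and 15 downward (0.663%). Without the 35 members with Csf1r or class II RNA these were 3 (0.205%) and 3 (0.205%) of 1462. Of the 98 and 15 genes, 3 and 2 were past the rule in both counts. Fewer genes could be measured in the smaller set, and what part this or the RNA of other cells had in the drop was not tested.

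For Het_MI over Het_sham 6 of 1748 genes were past it upward (0.343%) and 53 downward (3.03%). With TMM scaling, which shifted the centre by 0.22 on the log2 scale, these were 26 and 33. Without the 35 members they were 1 (0.0801%) and 9 (0.721%) of 1248. For KO_MI over KO_sham 22 of 2296 were past it upward (0.958%) and 8 downward (0.348%), and 7 (0.511%) and 7 (0.511%) of 1370 without the 35. For KO_sham over Het_sham 3 of 1747 were past it upward (0.172%) and 15 downward (0.859%), 9 and 12 with TMM, and 3 (0.255%) and 9 (0.765%) of 1177 without the 35.

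Specific granule genes were compared between libraries, with the limit that Camp, Ltf and Ngp chose the members. In 3 of the 4 comparisons none of the 18 or 19 measured genes was past the size rule, which asks for the whole interval. In KO_MI over KO_sham 1 of 19 was, Olfm4 downward. The shares of all genes past it are low as well (0.663% downward for KO_MI over Het_MI, 0.348% for KO_MI over KO_sham), so these counts are near the background. The list's median was −0.19 for KO_MI over Het_MI, 0.03 for Het_MI over Het_sham, −0.05 for KO_MI over KO_sham and −0.11 for KO_sham over Het_sham, where all genes had 0.06, −0.16, −0.01 and −0.08. None of the 7 oxidase genes and none of the 11 gelatinase granule genes was past the rule in any comparison.

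Olfm4, encoding olfactomedin-4 of a subset of neutrophils, was found in 17 of 37, 16 of 38, 17 of 37 and 24 of 63 members. Its level was 1430, 1650, 1422 and 864 CPM, lowest in KO_MI. KO_MI over KO_sham was −0.93 (−1.13 to −0.73) and without the 35 members −0.86 (−1.09 to −0.64). It was no longer past the rule at −0.61 without members that held at least 3 UMIs of another lineage, −0.74 without dividing members and −0.76 without the top cell. In other neutrophils Olfm4 was at 335, 306, 282 and 382 CPM, highest in KO_MI.

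S100a8, a subunit of calprotectin, an abundant cytosolic protein of neutrophils, had a higher level in each MI library than in the sham library of the same genotype. The gene is part of the rule, for other neutrophils as well, so its levels in both cell groups are a description only. The lowest member held 310 per 10000 of S100a8 and S100a9 together, and the limit was 50. Its level was 69934, 79595, 100551 and 97647 CPM. Het_MI over Het_sham was 0.52 on the log2 scale (0.50 to 0.55) and KO_MI over KO_sham 0.29 (0.27 to 0.32), both short of 1.5-fold. Medians over cells were 696, 872, 980 and 1132 per 10000, with quartiles of 596 and 860, 724 and 935, 829 and 1141, and 896 and 1292, so that the libraries overlap cell by cell. Over 14 other settings the 2 ratios ran from 0.30 to 0.74 and from 0.24 to 0.47, above 0 in each. Among these settings, an S100 limit of 100 per 10000 kept the same members, and a minimum of 10 UMIs left the ratios unchanged.

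KO_MI over Het_MI for S100a8 was −0.04 with all members and 0.21 (0.19 to 0.24) without the 35, so its sign depended on them. S100a8 had the same order of medians in other neutrophils, at 296, 387, 444 and 536 per 10000, and there MI over sham was 0.44 (0.41 to 0.47) in Het and 0.22 (0.20 to 0.25) in KO. B cells held 37.2, 71.7, 60.2 and 70.5 CPM of S100a8 RNA. S100a9, its partner, differed less: 108010, 115585, 127304 and 111584 CPM. With 1 library a group, surgery and library cannot be told apart in either cell group.

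**Figure D4:**
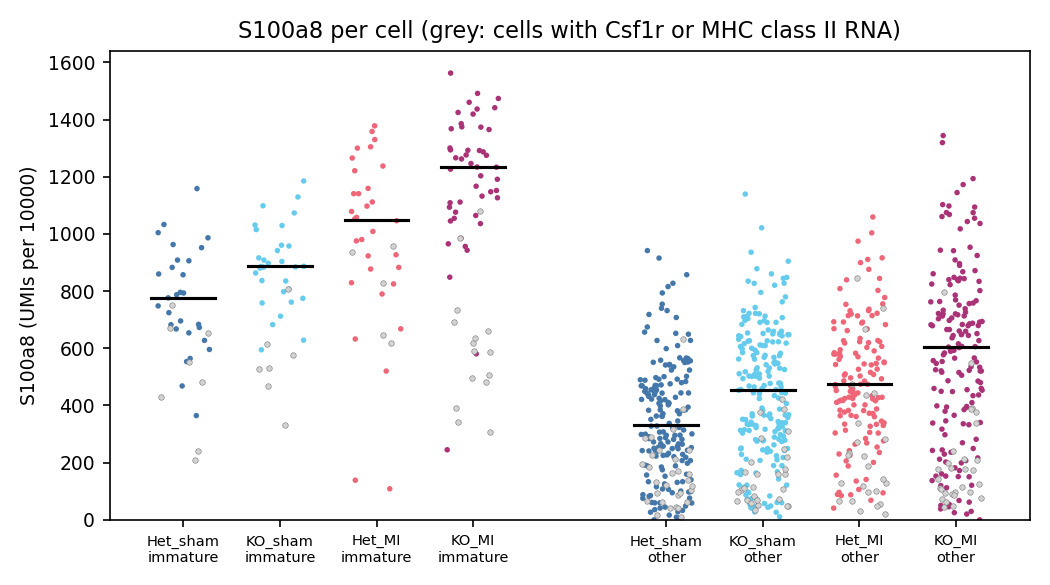
S100a8 per cell in UMIs per 10000 in immature and other neutrophils of each library, with cells that carry Csf1r or MHC class II RNA in grey and the median of the remaining cells as a bar. The bars climb from Het_sham to KO_sham, Het_MI and KO_MI in both cell groups, and the cells of neighbouring libraries overlap.

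Ifi27l2a and Ifitm3, both induced by interferon, had their highest level in KO_MI. Ifi27l2a was at 167, 142, 91.3 and 436 CPM, with a UMI in 14, 9, 9 and 32 members. KO_MI over Het_MI was 2.26 (1.64 to 2.93) and KO_MI over KO_sham 1.62 (1.11 to 2.17). Without the 35 members these were 3.36 (2.26 to 4.71) and 2.27 (1.43 to 3.23), and both stayed past 1.5-fold in each of 14 other settings. The higher S100 limit and the lower UMI minimum could not change them, and equal weight per cell was judged without an interval. Ifitm3, a membrane protein that blocks virus entry, was at 969, 941, 540 and 1350 CPM, with KO_MI over Het_MI at 1.32 (1.06 to 1.59) and 1.05 (0.71 to 1.38) without the 35. Its KO_MI over KO_sham ratio was 0.52 (0.30 to 0.74), short of the rule. Both genes were named after their values were seen. Both were also higher in KO_MI among other neutrophils, Ifi27l2a at 710 CPM against 226 to 277 and Ifitm3 at 1298 against 635 to 735.

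The other interferon genes were mostly too rare to measure. Of 22 type I interferon genes, 6 could be measured for KO_MI over Het_MI, and Ifi27l2a alone was past the rule (4.33% of all genes were). Their median was 0.98, against 0.06 over all genes, and it was 0.14 over the 3 measured without the 35 members.

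Of 23 measured genes of the list of mature neutrophils, 2 were past the rule upward for Het_MI over Het_sham (Il1rn and Cd14; 0.343% of all genes) and 1 downward (Ccl4, at −1.76; 3.03% of all genes). The list's median was 0.05 against −0.16 over all genes, and Il1b was at −0.39. For KO_MI over KO_sham 3 of 23 were past the rule upward (0.958% of all genes) and 0 downward. The list's median was 0.22 there, against −0.01 over all genes. Il1b was at 0.93 in that comparison and past the rule, but short of it in 5 of 14 other settings. Its direction after MI thus differed between the genotypes. Il1rn, the interleukin-1 receptor antagonist, had 5, 10, 43 and 22 UMIs, or 19.9, 39.4, 164 and 45.9 CPM, and 44.2% of the Het_MI UMIs were in 1 cell. Het_MI over Het_sham was 3.04 (1.71 to 4.74) and KO_MI over Het_MI −1.83 (−2.64 to −1.06). Neither was past the rule without the top cell, at 2.20 and −0.99, or without members with at least 3 UMIs of another lineage, at 1.37 and −0.17. Other neutrophils had 224, 188, 546 and 223 CPM, again highest in Het_MI. Cd14, a co-receptor for bacterial lipopolysaccharide, was at 226, 268, 498 and 332 CPM, with Het_MI over Het_sham at 1.14 (0.68 to 1.61) and 0.76 (0.21 to 1.33) without the 35 members, short of the rule. Spp1 (osteopontin) was at 47.6, 55.1, 160 and 58.4 CPM. Its Het_MI over Het_sham ratio was 1.74 (0.79 to 2.81), and 1.15 (0.16 to 2.23) without the 35, short of the rule.

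KO_MI was lower in Zmpste24, a metalloprotease that trims prelamin A, at 254, 276, 300 and 113 CPM. KO_MI over KO_sham was −1.29 (−1.83 to −0.76) and −1.04 (−1.62 to −0.47) without the 35 members, short of the rule. Qsox1, a sulfhydryl oxidase of the secretory pathway, was at 123, 150, 83.7 and 52.2 CPM. Its KO_MI over KO_sham ratio was −1.52, and −1.45 (−2.34 to −0.60) without the 35, still past the rule. Without the top cell of each gene it was no longer past it. Over 14 other settings the ratio ran from −1.64 to −1.32, short of the rule in 2, and it rests on 25 UMIs in KO_MI and 38 in KO_sham.

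Ribosome genes were lower in each library without the 35 members. The 20 ribosome and translation genes summed to 13092, 10398, 6937 and 13595 CPM in all members and to 8302, 6978, 5727 and 6301 without the 35. For KO_MI over Het_MI, 12 of 20 were past the rule upward with a median of 0.99, where 4.33% of all genes were. Without the 35 it was 0 of 20 with a median of 0.08, where 0.205% of all genes were, so that a count of 0 is near the background. For Het_MI over Het_sham, 7 of 20 were past it downward with a median of −0.89 (3.03% of all genes), and without the 35 0 of 20 with −0.56 (0.721% of all genes). Among the 35 members the sum was 22431, 19783, 12083 and 24249 CPM. MHC class II genes (4 measured) were past the rule in all 4 comparisons, but 1 cell held all 111 H2-Aa UMIs of Het_sham and 1 cell 61.6% of the 185 UMIs of KO_MI. KO_sham and Het_MI had 1 H2-Aa UMI each. The 35 members were chosen in part by class II UMIs, so the class II level without them is set by that choice and is not a result.

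**Figure D5:**
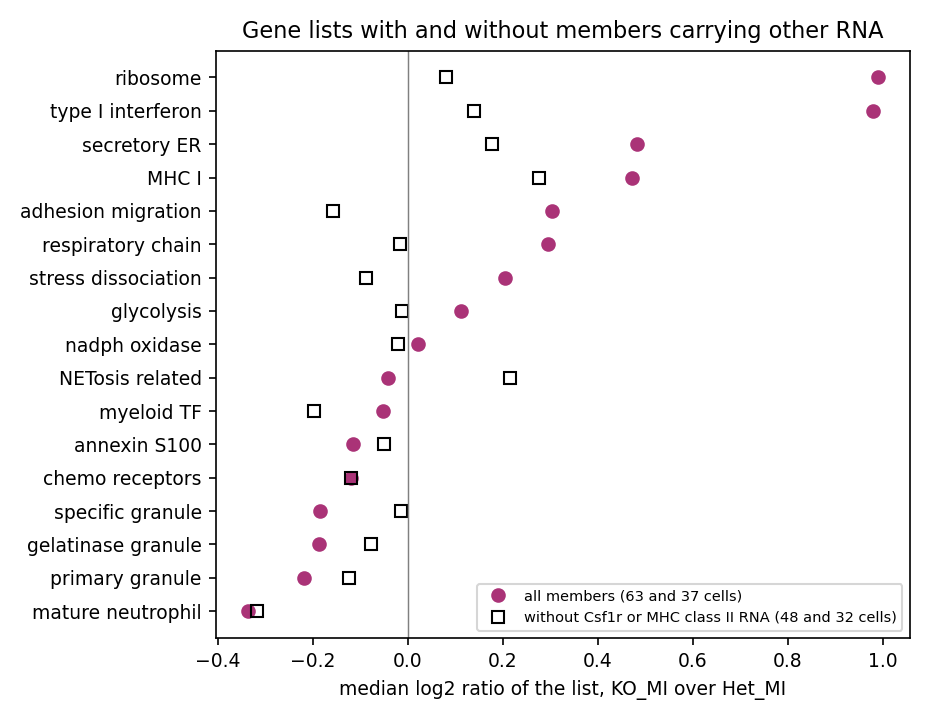
Median log2 ratio of each gene list between KO_MI and Het_MI, for all members (filled) and without those carrying Csf1r or MHC class II RNA (open squares). The ribosome list moves from 0.99 to 0.08, while the specific granule list stays near 0 at −0.19 and −0.02.

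Genes of division and chromatin were uneven between libraries. Mki67, a marker of cycling cells, had 24, 0, 7 and 49 UMIs in 7, 0, 2 and 8 members, and 1 cell held 66.7%, 85.7% and 42.9% of them in Het_sham, Het_MI and KO_MI. Ube2c, of mitotic exit, was at 59.6, 3.94, 7.61 and 98.1 CPM. Stmn1 was at 111, 19.7, 106 and 73.0 CPM and Ptma, a small nuclear protein of growing cells, at 762, 303, 304 and 697 CPM. KO_sham over Het_sham was −1.33 for Ptma and −2.50 for Stmn1, and −2.52 and −2.92 without the 35 members. Neither was past the size rule without the top cell of each gene. Over 14 other settings Ptma ran from −2.82 to −0.75, short of the rule in 3. Stmn1 ran from −2.92 to −1.39, short of it in 4, and had 28 UMIs in Het_sham and 5 in KO_sham. KO_sham had the fewest members on the Chil3 side, 8 of 38, and the part of this in the result was not tested.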

How the data were processed

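Single-cell RNA was measured with 10x Genomics 3' v3 chemistry. The authors' deposited files give UMI counts, not normalized. Per the submitters' processing notes, Cell Ranger 6.1.1 and Seurat 4 were used with mm10 and GRCm38, while the file headers name Cell Ranger 4.0.0. No source used here gives cell calling settings or a cell annotation.

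UMIs were summed over the members of each library and scaled to CPM. Shares carry Clopper-Pearson intervals, levels Poisson intervals and log2 ratios exact conditional binomial intervals. Doublets were scored by Scrublet's method and left in, other than in an alternative. TMM factors came from edgeR 4.0.16 in R 4.3.3, other values from Python 3.11.15. The calling rule was run on simulated Poisson counts without spread between cells, so that run does not cover genes whose RNA sits in single cells.

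Members, the 37 lists and comparisons were chosen with earlier results of these data known. Named were the markers, the 12 highest and 12 lowest genes against other neutrophils, up to 6 each way per comparison, and from each list the 6 members with the most UMIs and the extremes; those with a clear role are described. Ifitm3, Ifi27l2a, Ptma, Stmn1, Plac8, Hmox1, Ccl4, Crip1, the Chil3 split and the motifs were chosen after values were seen. Alternatives were other limits, cell filters, scalings, UMI minimums and cell weights.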

Additional observations from a re-analysis of the deposited data

Results flagged for a closer look

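For 7 genes the ratio of MI over sham in members lay beyond 1.5-fold downward in Het and upward in KO. Of all measured genes, 53 of 1748 (3.03%) were past the rule downward in Het and 22 of 2296 (0.958%) upward in KO. The number that moved the same way in both genotypes is not given here. The difference between genotypes was not tested, since each group is 1 library. Ptma had −1.33 in Het and 1.20 in KO on the log2 scale, and −0.92 and 1.76 without the 35 members that carry Csf1r or MHC class II RNA. Without members with at least 3 UMIs of another lineage the Het value turned to 0.79, so the opposite signs rest on those members. Ccl4, a chemokine, had −1.76 and 1.81, with 60.0% of the Het_sham UMIs and 62.3% of the KO_MI UMIs in 1 cell. Crip1, a small LIM protein, had −2.19 and 1.34, and −2.77 and 0.58 without the 35 members. The KO value turned to −0.87 without members with any Csf1r UMI.

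The other 4 genes were of MHC class II. H2-Ab1 had −4.52 and 6.43, H2-Aa −6.86 and 6.62, H2-Eb1 −5.72 and 4.99, and Cd74 −5.90 and 3.82. In Het_sham 1 cell held 88.2% of the Cd74 UMIs, and in KO_MI 1 cell held 54.1%. Class II UMIs helped to choose the 35 members, so values of these 4 genes without them say nothing further.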

How the results depend on the processing

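Of the shares and counts recomputed under other settings, 137 stayed within the interval of the reported value or within 1.5 times of its count, and 39 did not. The 137 include values that could hardly move. An S100 limit of 100 per 10000 kept the same members, and equal weight per cell could only keep or drop genes already past the rule. With mitochondrial UMIs at most 5%, the share of members among kept cells was 1.13%, 0.927%, 1.17% and 1.22% in Het_sham, KO_sham, Het_MI and KO_MI. Without members with at least 3 UMIs of another lineage it was 0.465%, 0.406%, 0.493% and 0.436%, so KO_MI no longer had the highest share, and without those with Csf1r or class II RNA it was 0.676% in KO_MI. Without any Csf1r UMI it was 0.446%, 0.390% and 0.605% in Het_sham, KO_sham and KO_MI. With no receptor UMIs asked of other neutrophils, the share among neutrophils in KO_MI was 19.0%. The dividing share in KO_sham was 0% without Scrublet's doublets, without other-lineage RNA, without Csf1r or class II RNA, without any Csf1r UMI, and after thinning.

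Genes past 1.5-fold for KO_MI over Het_MI numbered 113, and 14 without other-lineage RNA, 6 without Csf1r or class II RNA, 72 without dividing members and 58 without the top cell of each gene. For Het_MI over Het_sham, 59 became 37 without doublets, 7 without other-lineage RNA, 10 without Csf1r or class II RNA, 94 with at least 10 UMIs and 24 without the top cell. For KO_MI over KO_sham, 30 became 12 and 14 under the same 2 RNA filters, 56 with at least 10 UMIs, 18 without dividing members and 13 without the top cell. For KO_sham over Het_sham, 18 became 5 without other-lineage RNA, 48 with at least 10 UMIs and 5 without the top cell. Genes higher than in other neutrophils in 4 libraries fell from 132 to 80 without other-lineage RNA. Fewer cells and genes are measured under these filters; the cause was not tested beyond that. Without any Csf1r UMI the counts were 14, 8, 14 and 13 in the order of the comparisons above. Both Csf1r filters were chosen after seeing the data.

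Signs turned as follows on the log2 scale; for class II genes the Csf1r or class II filter sets this by its own construction. For KO_MI over Het_MI without other-lineage RNA, H2-Aa and H2-Ab1 were −0.17 and H2-Eb1 −1.17; H2-Aa was −0.42 without Csf1r or class II RNA; without dividing members Ccl4 was −0.054 and H2-Ab1 −2.20. For Het_MI over Het_sham, Ptma was 0.79 without other-lineage RNA and Hspa1b 0.65 without Csf1r or class II RNA. For KO_MI over KO_sham, Apoe was 1.32 without doublets, 0.50 without other-lineage RNA, 1.94 without Csf1r or class II RNA, 1.5 without dividing members and 1.33 without the top cell. H2-Eb1 was −1.92 and −2.20 under the 2 RNA filters, and H2-Ab1 −0.63 without dividing members. For KO_sham over Het_sham, Apoe was −0.13 without doublets, −0.60 without Csf1r or class II RNA, −1.21 without dividing members and −1.12 without the top cell; Cd74 was 1.31 and 2.42 under the 2 RNA filters, and Hspa1b 0.84 without Csf1r or class II RNA. Without any Csf1r UMI, KO_MI over Het_MI was −0.33 for H2-Aa and −1.33 for H2-Ab1 and H2-Eb1, Het_MI over Het_sham was 0.42 for Hspa1b, KO_MI over KO_sham was 1.84 for Apoe, −0.87 for Crip1 and −1.87 for H2-Eb1, and KO_sham over Het_sham was −0.29 for Apoe and 1.54 for Cd74.

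No paired analysis was possible because each group is 1 library, and no replicate could be left out. With 37 to 63 members a library, differences in rare RNAs rest on single cells.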

Other observations

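Hmox1, encoding haem oxygenase, and Plac8 had their lowest level in Het_MI members. In the library order of the report, Hmox1 stood at 675, 343, 175 and 536 CPM, and at 342, 193, 94.0 and 169 without the 35 members that carry Csf1r or MHC class II RNA. Het_MI over Het_sham was −1.95 and −1.87. Plac8 stood at 874, 563, 338 and 954 CPM, and at 433, 317, 160 and 288 without the 35, with Het_MI over Het_sham at −1.37 and −1.44. Both ratios were beyond 1.5-fold with and without these members. Hmox1 stayed so in each of 14 settings, from −2.27 to −1.48, though the higher S100 limit and lower UMI minimum could not change it. Plac8 did not in 3, at −0.56 without the top cell, −0.31 without members with any Csf1r UMI and −0.14 without members with at least 3 UMIs of another lineage.

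Other neutrophils also held dividing cells: 15 of 208 in Het_sham, 3 of 231 in KO_sham, 5 of 162 in Het_MI and 4 of 191 in KO_MI had at least 3 mitosis UMIs. Csf1r or class II RNA, by the same limit, was found in 14.1% of the 792 other neutrophils and in 20% of members, at median depths that differ.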
